A study of Danio rerio with 16 samples.

Results

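Zebrafish embryos labelled as Gata5/6 morphants, called double morphants here, were compared with themselves over time: 2 libraries at 6-somites, when the first segments of the trunk muscle have formed, against 2 libraries at bud, when gastrulation ends. Genes were taken if they were listed at both stages and reached 1 RPKM (reads divided by gene length in kilobases and by library size, the authors' unit) in at least 2 of these 4 libraries. This gave 13443 genes of 25530 listed at both stages, or 52.7%, and of 27257 identifiers in any library of the series. The rule looks at all 4 libraries, so a gene that is silent at bud enters through 6-somites alone. Of the 1118 genes at the edge, with exactly 2 libraries at 1 RPKM, 689 had both at 6-somites and 213 had both at bud. The rule favours a difference between the stages in these genes. Of the 689 genes 517 were later called higher at 6-somites, and of the 213 genes 103 were called lower. Among genes named below, tal1, en2 (ENSDARG00000038868), myog, sox10, neurod1, foxd1, fli1, wt1, hoxd11, her4.1, foxi3b, nog2 and gli3 entered through 6-somites alone. lft2 entered through bud alone. The rule thus favours the calls on these genes, which also count in the lists below. The mean of the 1118 genes over the 4 libraries had a median of 1.06 RPKM, against 0.755 RPKM for the 866 genes just outside, with 1 library at 1 RPKM.

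The series holds 16 polyA RNA libraries in 8 groups of 2, each from 40 pooled whole embryos. The groups are double morphants at 6-somites and at bud, Gata5 morphants at 6-somites and at bud, Gata6 morphants at 6-somites and at bud, and WT at 6-somites and at bud. Morphants are embryos that received morpholinos, synthetic oligomers that bind an mRNA and stop it from being translated or spliced. Such knockdown is partial, fades as the embryo grows and does not have to lower the mRNA. Morpholino doses, a control morpholino, clutches and collection days are not given in the labels, so stage and collection day cannot be told apart. Nothing in the labels says whether the 2 pools of a group came from separate clutches, and the p-values measure only the spread between these libraries.

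The factors Gata5 and Gata6 bind GATA sites in DNA and work in overlapping ways in endoderm and heart precursors, and Gata5 is also made in the yolk syncytial layer. Between bud and 6-somites the zebrafish embryo leaves gastrulation behind. Pluripotency and organizer genes fade, the neural plate is divided into territories, the first neurons and muscle cells appear, and the lateral mesoderm is split into blood, vessel, kidney and heart precursors. In whole embryos, fewer cells of a type and less RNA per cell cannot be told apart.

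Depth was 19.7 to 30.8 M reads, and 19.7 to 28.8 M in the double morphants. A principal component analysis put 51.1% of the variance on component 1, which separated the stages. On it the double morphants stood at 15.4 and 21.8 at 6-somites, against -36.6 and -34.3 at bud. The other 6-somites libraries stood higher, between 24.8 in Gata6 morphants and 36.5 in WT, and the other bud libraries spread from -13.9 in Gata6 morphants to -37.8 in WT. Bud libraries of a group differed more, and the SD of the log2 difference between replicates was 0.217 in double morphants at 6-somites and 0.444 in double morphants at bud.

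**Figure D1:**
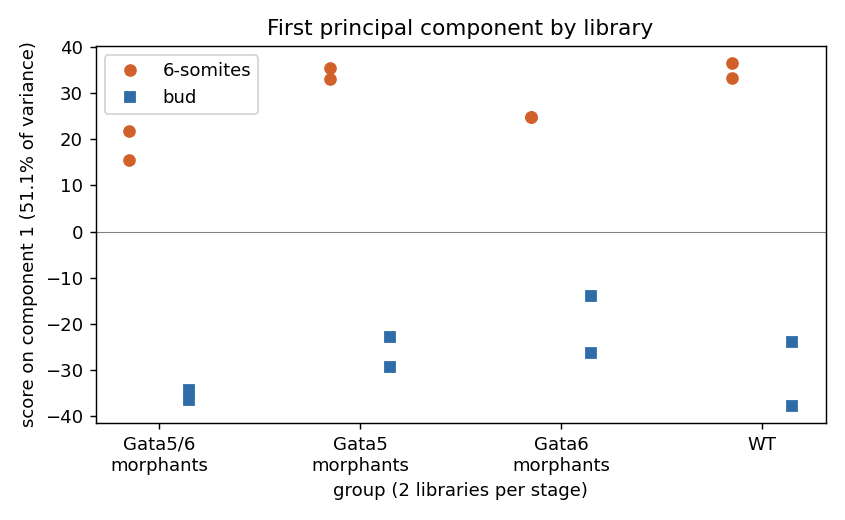
Score of each library on the first principal component (51.1% of the variance) for Gata5/6 double morphants, Gata5 morphants, Gata6 morphants and WT, with 6-somites as circles and bud as squares. The double morphant libraries at 6-somites, at 15.4 and 21.8, are the lowest of the 8 at that stage. Those at bud, at -36.6 and -34.3, lie below the other bud libraries except WT bud replicate 2, at -37.8.

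gata5 (ENSDARG00000017821), the target gene that could be matched, had 130 and 117 RPKM in double morphants at 6-somites, against 158 and 161 RPKM at bud. In WT it had 27 and 32.3 RPKM at 6-somites and 46.3 and 52.9 RPKM at bud. All 4 double morphant libraries were thus above all 4 WT libraries, and gata5 mRNA was lower at the later stage in both. The share of all genes with such a gap between double morphants and WT was not counted. The stage change of -0.37 ± 0.11 (log2 of RPKM + 1 with its limma SE) passed at an adjusted p of 0.034. Each of the 4 fits that left out a library lost this call, with adjusted p up to 0.24. tmem88a (ENSDARG00000056920), a membrane protein gene that inhibits canonical Wnt signalling and the subject of the study's title, had 2.46 and 2.15 RPKM at 6-somites, against 0.745 and 1.36 RPKM at bud. The 6-somites libraries were higher without overlap, but 64.3% of all genes tested had no overlap in one direction or the other. The change of 0.7 ± 0.3 gave an adjusted p of 0.11. Its paralog tmem88b (ENSDARG00000069388) had 2.8 and 2.88 RPKM at 6-somites and 2.54 and 2.57 RPKM at bud, a change of 0.11 ± 0.14 with adjusted p = 0.62.

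In double morphants 2939 of the 13443 genes passed the test (limma, adjusted p under 0.05), a share of 21.9%. At 6-somites 2096 were higher, 15.6% of those tested, and 843 were lower, 6.27%. Of the higher genes 544 changed by at least 1 on the log2 scale and 72 by at least 2, against 206 and 25 of the lower genes. All 2939 had both libraries of one stage beyond both of the other, as had 64.3% of all genes tested. The median log2 change over all genes tested was 0.08. Scaling by median of ratios brought that median to -0.00504 and the share of higher genes among the calls to 56.6%, against 71.3% with RPKM as deposited, so the balance of higher and lower calls depends on the scaling. Leaving out 1 library left 1233 calls without 6-somites replicate 2, 1655 without 6-somites replicate 1, 1669 without bud replicate 1 and 2391 without bud replicate 2.

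Among called genes with a symbol and a mean of at least 5 RPKM in their higher stage, the 2 highest changes were those of tal1 and etsrp. tal1 (ENSDARG00000019930), a transcription factor that starts blood and endothelium, had 17.4 and 17.9 RPKM at 6-somites, against 0.135 and 0.0418 RPKM at bud. In reads, that was 1325 and 1297 at 6-somites, against 7 and 3 at bud, so the bud level rests on very few reads. The log2 change was 4.1 ± 0.13 (adjusted p = 1e-08). etsrp (ENSDARG00000053868), an Ets factor required for endothelium, had 29 and 27.2 RPKM at 6-somites, against 1.12 and 0.938 RPKM at bud, a change of 3.84 ± 0.29 (adjusted p = 7.3e-06). lmo2 (ENSDARG00000095019), a partner protein of Tal1, had 27.4 and 29.5 RPKM at 6-somites and 1.69 and 2.57 RPKM at bud. A further identifier, ENSDARG00000091986, carries nearly the same values, so the lmo2 level is uncertain if reads were shared between copies.

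Among brain and eye genes, en2 (ENSDARG00000038868), a homeobox gene of the midbrain-hindbrain boundary, had 13 and 14 RPKM at 6-somites, against 0.0836 and 0.161 RPKM at bud, a change of 3.69 ± 0.12. mab21l2, needed for eye growth, averaged 28.9 ± 2.5 RPKM at 6-somites and 1.34 ± 0.49 RPKM at bud (SD, n = 2 each). mafb, which patterns the hindbrain, had 22.3 and 22.5 RPKM at 6-somites, against 1.17 and 2.51 RPKM at bud. None of these groups overlapped between the stages, which holds for every called gene. The list of the 12 highest is completed by sox10 of the neural crest, the T-box gene tbx2 (ENSDARG00000018025), the claudin gene cldni, the glycolate oxidase gene hao1, and the matrix genes thbs4 and col2a1 (ENSDARG00000069093), with changes of 2.76 to 3.24.

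Of the 12 lowest changes, lft2, vrtn, pou5f3 and gsc are genes known from the gastrula. lft2, a secreted antagonist of Nodal, averaged 0.7 ± 0.13 RPKM at 6-somites and 14.8 ± 0.61 RPKM at bud (SD, n = 2 each), a change of -3.21 ± 0.17 (adjusted p = 6.4e-07). vrtn, which limits bmp2b expression in the zebrafish gastrula, had 2.8 and 2.61 RPKM at 6-somites, against 32.7 and 22.8 RPKM at bud. pou5f3, the zebrafish pluripotency factor of the Oct4 family, had 5.44 and 5.24 RPKM at 6-somites, against 34.9 and 29.4 RPKM at bud. Each fell without overlap between the stages, as every called gene changed without overlap. Amino acid transport genes were also among the 12 lowest: the light chain gene slc7a8 changed by -2.16 ± 0.17 and the heavy chain gene slc3a2, encoding its partner, by -2.08 ± 0.28. The others were maf (ENSDARG00000076520), the calcium-binding protein gene s100a1, the G-protein subunit gene gngt2, ankrd6a, the apoptosis inhibitor gene bcl2l10, the organizer gene gsc and the endothelin receptor gene ednra, at -2.44 to -2.02. Of these 24 genes, only ankrd6a lost its call when a library was left out (adjusted p = 0.057 without 6-somites replicate 2).

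**Figure D2:**
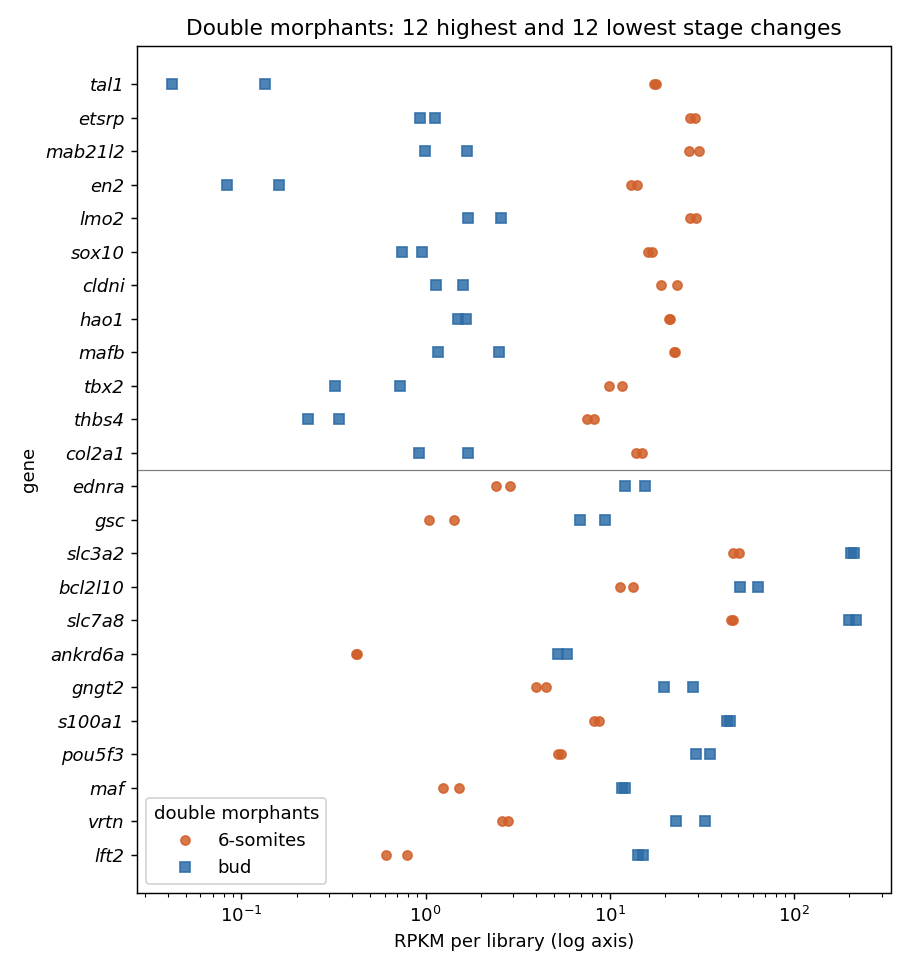
RPKM (log axis) of each double morphant library for the 12 highest and the 12 lowest log2 stage changes. They were taken among called genes with a symbol, clone names aside, and a mean of at least 5 RPKM in their higher stage. A further 12 called genes, passed over for lack of a symbol, changed by more than the 12th highest or lowest and are not shown. Circles are 6-somites and squares are bud. tal1 stands at 17.4 and 17.9 RPKM at 6-somites against 0.135 and 0.0418 RPKM at bud, and vrtn at 2.8 and 2.61 RPKM against 32.7 and 22.8 RPKM.

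Of 53 genes listed for zygotic genome activation and gastrulation, 47 were tested, 24 were lower at 6-somites and 5 higher, against 6.27% lower and 15.6% higher over all genes. Their median log2 change was -0.53. The shares of 6.27% lower and 15.6% higher over all genes stand beside each list count below as well. Some genes are members of several lists and count in each, so the list counts are not separate results. Both tbx2 copies, for example, count as higher in the cardiac progenitor, eye field and placode lists. gata5 counts as lower in the cardiac progenitor, endoderm and yolk syncytial lists. nanog, the pluripotency factor, had 1.82 and 1.29 RPKM at 6-somites, against 6.97 and 5.95 RPKM at bud. gsc, the homeobox gene of the organizer, had 1.42 and 1.04 RPKM at 6-somites, against 9.42 and 6.88 RPKM at bud. The exceptions included wnt11 (ENSDARG00000014796), a non-canonical Wnt ligand, at 24.4 and 28.1 RPKM at 6-somites against 2.97 and 3.58 RPKM at bud. wnt11f2 (ENSDARG00000004256), of the same list, went the other way, with a log2 change of -1.47 (adjusted p = 0.00048). foxd3, a gene that also acts in the neural crest, was another exception, at 24 and 22.9 RPKM against 9.83 and 12.4 RPKM. eve1, a ventral homeobox gene, had 8.43 and 7.59 RPKM at 6-somites and 11.3 and 12.1 RPKM at bud and did not pass (adjusted p = 0.14). Without bud replicate 1 or 6-somites replicate 2 the higher genes of the list numbered 2.

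The maternal and oocyte list had 26 of 48 members tested, with 1 higher and 7 lower. Its lower members included pou5f3, vrtn and nanog, which are also made by the zygote, and zp3b, an egg coat gene, at 4.49 and 5.02 RPKM at 6-somites against 11.9 and 8.17 RPKM at bud. zar1 and zp2.3, which act in the oocyte, did not pass, with changes of -0.34 ± 0.13 and -0.18 ± 0.18. Among 10 tested germ cell genes, ddx4, the vasa helicase gene, fell by 1.23 ± 0.23 on the log2 scale, while nanos3 and dnd1 changed by -0.16 ± 0.12 and -0.23 ± 0.14 and were not called. The lower maternal genes numbered 4 without bud replicate 2 or 6-somites replicate 2.

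Of 38 genes in the Hox clusters 32 were tested, 17 were higher, 1 lower and 14 not called, with a median change of 0.59. hoxd11 had 5.1 and 5.87 RPKM at 6-somites, against 0.685 and 0.366 RPKM at bud (2.09 ± 0.14, adjusted p = 2.9e-06). hoxa10b had 7.94 and 9.09 RPKM at 6-somites, against 1.66 and 1.94 RPKM at bud, and hoxd9 rose by 1.80 ± 0.32. Genes from both ends of the clusters were among those called, such as hoxa2b with a log2 change of 1.55, and posterior genes such as hoxa13b did not all pass (0.41, adjusted p = 0.069). hoxa2b and hoxa13b were chosen after their values were seen. hoxb1b, an early hindbrain gene from the anterior end of the clusters, had 39 and 36.8 RPKM at 6-somites, against 58.8 and 56.6 RPKM at bud. Its fall passed at an adjusted p of 0.034 and was lost without any 1 of the 4 libraries (up to 0.17), and hoxb1a, at 0.26 ± 0.20, did not pass. The count of higher Hox genes dropped to 8 without 6-somites replicate 2, to 9 without bud replicate 1 and to 12 without 6-somites replicate 1.

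In the nervous system, of 36 tested genes of neuronal differentiation 20 were higher and 5 lower, with a median of 0.68. elavl3, an RNA-binding protein gene of new neurons, had 10.3 and 15.8 RPKM at 6-somites, against 2.01 and 3.22 RPKM at bud (1.95 ± 0.19, adjusted p = 3.6e-05). neurod1, a neuronal differentiation factor, had 3.57 and 3.18 RPKM at 6-somites, against 0.273 and 0.471 RPKM at bud. neurog1, which acts before it in the same progenitors, had 24.1 and 21.1 RPKM at 6-somites and 19.4 and 28.3 RPKM at bud. The stages overlapped for neurog1 and the change of -0.05 ± 0.27 was not called. phox2a (-1.97 ± 0.32), onecut1 (-1.49 ± 0.21) and olig2 (-1.01 ± 0.13), which encode transcription factors of neuron subtypes, fell. With a filter at 5 RPKM 21 neuronal genes were tested, of which 10 were higher and 4 lower.

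The neural plate patterning list had 64 members tested, 20 higher and 15 lower, and a median of 0.16. In the hindbrain, egr2 (krox20), a factor of rhombomeres, had 13.2 and 14.3 RPKM at 6-somites, against 0.983 and 1.72 RPKM at bud. The anterior gene otx2 fell by 0.73 ± 0.15 on the log2 scale, a call lost without 6-somites replicate 2 (adjusted p = 0.068). gbx1, a hindbrain homeobox gene of the gastrula, had 7.24 and 6.68 RPKM at 6-somites, against 21.5 and 23.9 RPKM at bud, and irx7 fell by 1.32 ± 0.15. Without 6-somites replicate 2 the lower genes of the list numbered 8, without bud replicate 1 they numbered 10, and without bud replicate 2 or 6-somites replicate 1 they numbered 9.

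In the eye field 21 genes were tested, 11 were higher and 5 lower, with a median of 0.59. foxd1, a retinal forkhead gene, had 5.63 and 6.73 RPKM at 6-somites, against 0.399 and 0.289 RPKM at bud. One copy of six3 (ENSDARG00000058008) had 7.37 and 6.95 RPKM at 6-somites, against 1.56 and 1.62 RPKM at bud. The other copy (ENSDARG00000054879) had 43.8 and 37.2 RPKM at 6-somites and 58.1 and 45.5 RPKM at bud, with an adjusted p of 0.097. rx3, which sets aside the early eye field, had 34.5 and 25.9 RPKM at 6-somites, against 63.2 and 44.2 RPKM at bud, and its call was lost without bud replicate 1 or 6-somites replicate 2 (up to 0.14). six7, another early eye field gene, and aldh1a2, a retinoic acid enzyme gene, fell by 1.00 ± 0.15 and 1.22 ± 0.19. pax6 stood at 2.41 and 2.6 RPKM at 6-somites and 2.33 and 2.64 RPKM at bud and was not called (0.01 ± 0.16). The lower eye field genes numbered 2 without bud replicate 1 or 6-somites replicate 2.

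In the neural crest list 8 of 25 tested genes were higher and 6 lower. sox10, a crest determinant, had 16.1 and 17 RPKM at 6-somites, against 0.746 and 0.954 RPKM at bud (3.24 ± 0.17, adjusted p = 6.4e-07). sox9 (ENSDARG00000043923) had 35 and 30.9 RPKM at 6-somites, against 4.18 and 6.15 RPKM at bud, and snai2, a factor of crest migration, rose by 1.88 ± 0.30. twist1a, a mesenchyme factor, fell to 16.1 and 13.9 RPKM at 6-somites, against 37.9 and 38.6 RPKM at bud. tfap2a, which acts at the border of the neural plate, was at -0.25 ± 0.15 and not called. Of 27 tested placode and ear genes 10 were higher and 0 lower, and six2 (1.37 ± 0.13) is an example. The placode count fell to 6 without bud replicate 2 and without either 6-somites library, and eya1 and dlx3, core members of the list, did not pass (0.29 ± 0.23 and -0.07 ± 0.11).

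Of 29 tested members of the notochord list 14 were higher and 7 lower. col2a1 (ENSDARG00000069093), the type II collagen of the notochord sheath, had 13.9 and 15 RPKM at 6-somites, against 0.92 and 1.7 RPKM at bud. Its other copy (ENSDARG00000011407) had 21.2 and 19.3 RPKM at 6-somites, against 5.29 and 5.57 RPKM at bud. hapln1a, a link protein of hyaluronan, rose by 2.41 ± 0.17 and the collagen gene col8a1a by 2.19 ± 0.15. noto (flh), a homeobox gene of notochord precursors, had 17.9 and 13.9 RPKM at 6-somites, against 34.1 and 40 RPKM at bud, and chrd, encoding the BMP antagonist Chordin, had 47.9 and 38 RPKM against 118 and 113 RPKM. One shh copy (ENSDARG00000038867) fell by 0.60 ± 0.13 and the other (ENSDARG00000068567) was at 0.44 ± 0.15, not called (adjusted p = 0.053). The first call was lost without 6-somites replicate 2 (0.07). tbxt (Brachyury) fell by 0.58 ± 0.18, a call lost without bud replicate 1 or either 6-somites library (up to 0.31). In the hatching gland list, where 6 of 19 tested genes were higher and 4 lower, the hatching enzyme genes he1.1 (2.25 ± 0.29) and he1.2 (2.23 ± 0.33) rose, and the gland's early factor klf17 was at -0.33 ± 0.28 and not called. Without 6-somites replicate 2 there were 4 lower genes in the notochord list and 2 in the hatching gland list.

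Of 62 skeletal muscle genes 33 were tested, 12 were higher, 1 lower and 20 not called. The median was 0.48, and 0.90 in WT for the same genes. The change of each gene minus its change in WT had a median of -0.19, and 0 of these differences were called. myog, a late myogenic factor, had 4.16 and 4.37 RPKM at 6-somites, against 0.11 and 0.212 RPKM at bud, or 3 and 8 reads. It entered the test through 6-somites alone, so the filter favours its rise. With a filter at 5 RPKM 20 muscle genes were tested, of which 6 were higher and 1 lower. acta1 (ENSDARG00000036371), a sarcomeric actin gene, had 57 and 55.2 RPKM at 6-somites, against 10 and 11.1 RPKM at bud, and actc1, another, had 25.4 and 28 RPKM against 3.18 and 4.01 RPKM. klhl41 (ENSDARG00000006757), a muscle protein of the kelch family, rose by 2.31 ± 0.16. The early factors myod1, at 21 and 23.5 RPKM at 6-somites and 20.1 and 12.5 RPKM at bud, and myf5, at 12.3 and 14.5 RPKM and 10.1 and 10 RPKM, were higher in both later libraries without passing (adjusted p = 0.19 and 0.072). Over all genes tested 64.3% had both libraries of one stage beyond both of the other. prdm1, needed for slow muscle, was the muscle list member that fell.

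Of 27 tested genes of somite segmentation 6 were higher and 6 lower, with a median change that was 0 to 2 decimals. her1, a gene of the oscillating clock, had 17.6 and 19.4 RPKM at 6-somites and 20.2 and 22 RPKM at bud (adjusted p = 0.39). tbx6, a T-box gene of the presomitic mesoderm, had 64.1 and 60.2 RPKM at 6-somites and 70.2 and 62.5 RPKM at bud (adjusted p = 0.81). mespaa, a gene of the forming boundary, had 1.6 and 1.97 RPKM at 6-somites and 3.57 and 2.2 RPKM at bud (adjusted p = 0.21). meox1, a factor of formed somites, had 32.6 and 32.1 RPKM at 6-somites, against 15.9 and 18.8 RPKM at bud, a call lost without bud replicate 1 or 6-somites replicate 2 (up to 0.065). Leaving out 1 library gave 3 to 5 higher and 2 or 3 lower genes, with the fewest in all, 5, without 6-somites replicate 2.

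Some regulators of heart precursors were measurable, whereas others, nkx2.5 and tbx5 among them, and most contractile genes were below the 1 RPKM needed. Of 33 genes of cardiac progenitors 23 were tested, 9 were higher and 4 lower, with a median of 0.41 against 0.42 in WT. nkx2.7 (ENSDARG00000021232), an NK2 homeobox gene of heart precursors and pharyngeal endoderm, had 19.8 and 16.8 RPKM at 6-somites, against 5.79 and 3.95 RPKM at bud. The stages did not overlap, as in every called gene, and the change was 1.73 ± 0.23 (adjusted p = 0.00037). hand2 (ENSDARG00000008305), a bHLH gene of the heart field, had 14.4 and 13.5 RPKM at 6-somites and 8.49 and 7.63 RPKM at bud. It was higher in both later libraries, at 0.72 ± 0.26, but its adjusted p was 0.065. Such non-overlap, in either direction, was found in 64.3% of all genes tested. Both tbx2 copies rose, by 2.96 ± 0.33 and 2.43 ± 0.17, as did isl2 (ENSDARG00000003971) by 1.3 ± 0.27, and all 3 are also expressed outside the heart. apela, the ligand of the apelin receptor, had 19.5 and 22.2 RPKM at 6-somites, against 45.9 and 31 RPKM at bud, and foxh1, a Nodal effector, fell by 1.04 ± 0.16. Without either 6-somites library the lower genes numbered 2.

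nkx2.5 (0.105 and 0.22 RPKM at 6-somites, 0.0614 and 0.133 RPKM at bud) and tbx5 (0.0142 and 0.0673 RPKM, 0.0104 and 0.0226 RPKM) were too low to be tested. The same held for the contractile genes. Of 22 members only 3 were tested, and myl7, the cardiac myosin light chain, had 0.047 and 0.0823 RPKM at 6-somites and 0.0688 and 0.133 RPKM at bud, or 3 and 5 reads and 3 and 8 reads. The 2 that rose, tpm4a (1.37 ± 0.14) and actn3b (0.80 ± 0.24), are cytoskeletal or skeletal muscle genes as well. The call on actn3b was lost without bud replicate 1 or either 6-somites library (up to 0.24).

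Of 42 listed genes of blood and vessel precursors 18 were tested, 8 were higher and 3 lower, and besides tal1, etsrp and lmo2 the endothelial Ets gene fli1 had 2.2 and 2.29 RPKM at 6-somites, against 0.131 and 0.365 RPKM at bud. gata1a, the erythroid factor, had 0.396 and 0.52 RPKM at 6-somites and 0.0207 and 0.0225 RPKM at bud, too low to be tested. The lower genes were lcp1 (-0.80 ± 0.18), cebpb (-0.92 ± 0.19) and blf (-1.36 ± 0.38), and none of these calls held without 6-somites replicate 2 (0 lower), while the count of 8 higher genes was the same without each of the 4 libraries.

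Of 16 tested genes of the endoderm list 7 were lower, 2 higher and 7 not called, with a median of -0.42. The list holds only genes that could be matched, with foxa2 as its only core member, so it covers early endoderm in part. foxa2, a forkhead factor of endoderm and midline, had 16.5 and 17.2 RPKM at 6-somites, against 32.4 and 28.9 RPKM at bud (-0.82 ± 0.16, adjusted p = 0.004). hnf4a, a factor of yolk syncytial layer and gut, had 1.51 and 1.5 RPKM at 6-somites, against 4.33 and 4.89 RPKM at bud. The lower genes numbered 4 without bud replicate 1 and without 6-somites replicate 2.

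In intermediate mesoderm 3 of 15 tested kidney genes were higher and 4 lower, where 15.6% of all genes were higher and 6.27% lower. wt1, a podocyte factor, had 1.75 and 1.96 RPKM at 6-somites, against 0.287 and 0.229 RPKM at bud, and irx3, a nephron and brain gene, rose by 1.35 ± 0.19. osr1, a core member of the kidney list, fell by 0.77 ± 0.12. pax8 had 25.7 and 18 RPKM at 6-somites and 31.5 and 41 RPKM at bud (adjusted p = 0.1). cdh17 (ENSDARG00000005112), the kidney and gut cadherin, had 10.2 and 11.4 RPKM at 6-somites and 12.1 and 6.64 RPKM at bud, so that the stages overlapped (0.23 ± 0.21, adjusted p = 0.47). The lower kidney genes numbered 2 without bud replicate 1 or 6-somites replicate 1.

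At the surface of the embryo, of 43 tested genes of the enveloping layer and epidermis 15 were higher and 5 lower. cldni, a claudin of tight junctions, had 19 and 23.2 RPKM at 6-somites, against 1.59 and 1.14 RPKM at bud, and foxi3b, an ionocyte factor, had 4.78 and 4.99 RPKM against 0.352 and 0.255 RPKM. The abundant keratin krt4 had 1640 and 1600 RPKM at 6-somites and 1270 and 1090 RPKM at bud and did not pass (adjusted p = 0.11). anxa1, an annexin, fell to 29.4 and 31.8 RPKM at 6-somites, against 110 and 76.3 RPKM at bud. Without 6-somites replicate 2 the higher genes of this list numbered 7, and 9 without 6-somites replicate 1 or bud replicate 2. Its lower genes numbered 3 without bud replicate 1 or 6-somites replicate 2.

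The yolk syncytial layer, the extraembryonic tissue that feeds the embryo, had 46 of 63 genes tested, 14 higher and 5 lower, and a median of 0.59, against 0.17 in WT for the same genes. apobb.1, an apolipoprotein B gene, had 83.5 and 136 RPKM at 6-somites, against 22.6 and 17.5 RPKM at bud (2.37 ± 0.43, adjusted p = 0.0025). apob had 11.8 and 17.8 RPKM at 6-somites, against 2.96 and 3.95 RPKM at bud, and selenop, a selenium carrier, rose by 2.12 ± 0.30. mttp, which loads lipid onto apolipoprotein B, went the other way, with 41 and 44.9 RPKM at 6-somites against 97.6 and 86.2 RPKM at bud. The call on mttp was lost without bud replicate 1 or 6-somites replicate 1 (up to 0.059). mxtx2, a regulator of this layer, was too low to be tested. The higher genes of the list numbered 7 without 6-somites replicate 2 and 9 without bud replicate 2, and the lower genes 1 without bud replicate 1 and 2 without either 6-somites library. Of 20 tested genes of gut and liver-type metabolism 4 were higher and 0 lower, a share called of 20% beside 21.9% of all genes. The glucose transporter gene slc2a2 (1.70 ± 0.31) was among the higher ones. These counts changed when bud replicate 2 or either 6-somites library was left out. The fit without bud replicate 2 called more members of this list lower than higher.

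**Figure D3:**
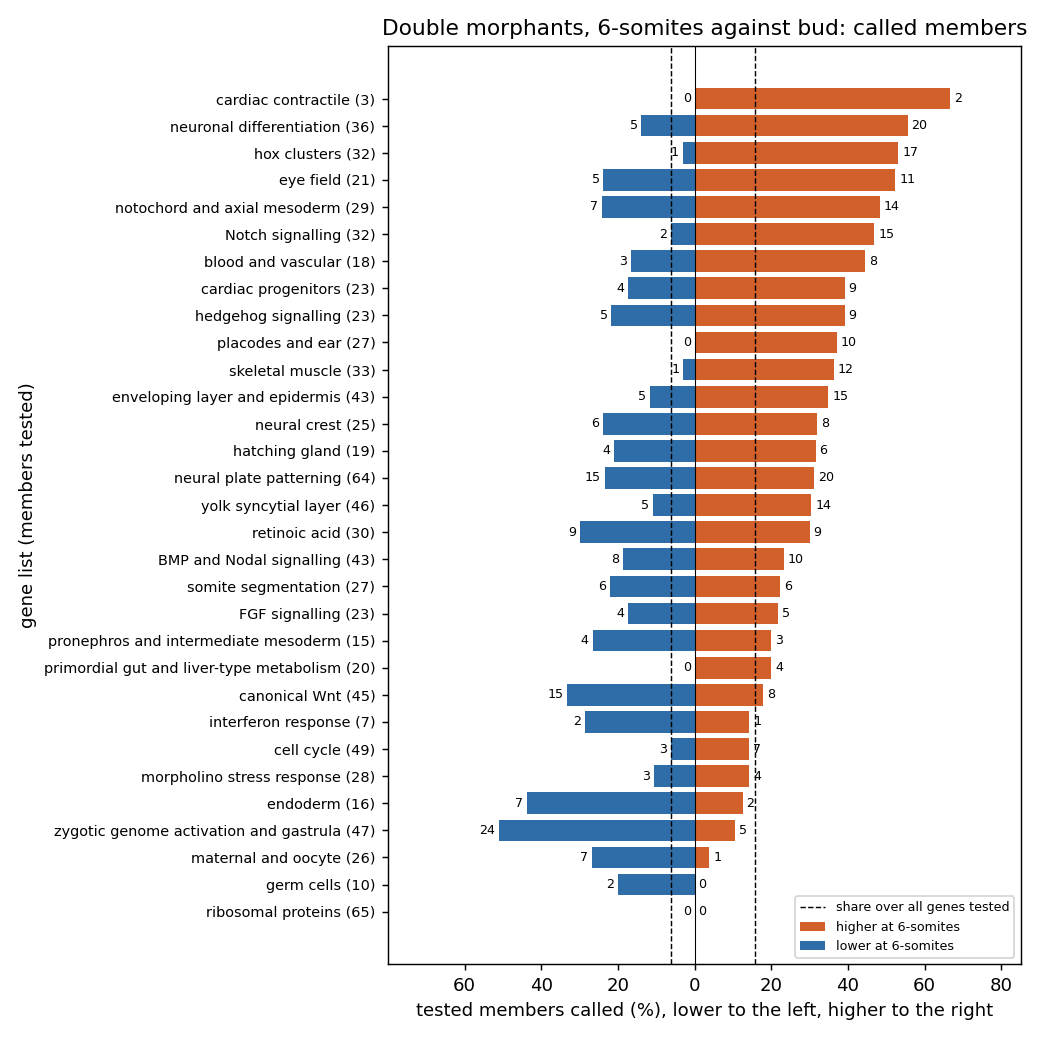
Share of tested members called higher (right, orange) or lower (left, blue) in double morphants at 6-somites against bud, for 31 gene lists with the number tested in parentheses and the number called beside each bar. Dashed lines mark the share over all 13443 genes, 15.6% higher and 6.27% lower. The gastrula list has 24 of 47 lower, and the neuronal list has 20 of 36 higher.

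Among signalling pathways, 15 of 45 tested canonical Wnt genes were lower and 8 higher, with a median of -0.09. Over all genes 6.27% were lower and 15.6% higher. Without 6-somites replicate 2 the lower Wnt genes no longer outnumbered the higher ones. Both identifiers that carry wnt8a, the ligand of the posterior margin, fell: ENSDARG00000052910 had 7.67 and 6.85 RPKM at 6-somites, against 21 and 21.9 RPKM at bud, and ENSDARG00000078507 had 11.1 and 9.97 RPKM against 30.8 and 32.7 RPKM. Among the secreted antagonists dkk1b fell by 1.13 ± 0.16 and frzb (ENSDARG00000018383) by 1.42 ± 0.15, whereas sfrp5 had 7.93 and 8.5 RPKM at 6-somites, against 0.98 and 1.31 RPKM at bud. The inhibitors apcdd1l (1.62 ± 0.14) and nkd2 (0.96 ± 0.16) also rose. lef1, a nuclear effector and target, was at -0.42 ± 0.15 and did not pass (adjusted p = 0.071). The lower count was 8 without 6-somites replicate 2, 9 without bud replicate 1 or 6-somites replicate 1, and 11 without bud replicate 2.

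In the BMP and Nodal list 10 of 43 tested genes were higher and 8 lower, where 15.6% of all genes were higher and 6.27% lower. Of the ligands, one bmp2 copy (ENSDARG00000041430) fell to 5.36 and 4.58 RPKM at 6-somites, against 12 and 11.2 RPKM at bud. The other (ENSDARG00000013409) was at 4.4 and 4.81 RPKM at 6-somites against 1.93 and 2.34 RPKM at bud, a rise lost without bud replicate 1 or 6-somites replicate 2 (up to 0.087). bmp4 was at 0.18 ± 0.17 and not called, and gdf6a, another ligand, rose by 1.2 ± 0.16. The organizer ligand admp (-1.61 ± 0.28) and the antagonist chrd (-1.41 ± 0.16) fell, and nog2, a Noggin gene, had 3.08 and 3.79 RPKM at 6-somites against 0.463 and 0.81 RPKM at bud. The BMP target id3 did not pass (0.14 ± 0.13). Without 6-somites replicate 2 the counts were 5 and 5.

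Of 23 tested FGF genes 5 were higher and 4 lower. The expressed fgf8 copy (ENSDARG00000003399) had 20.8 and 21.5 RPKM at 6-somites, against 29.3 and 36.3 RPKM at bud, and its call was lost without bud replicate 2 or either 6-somites library (up to 0.078). fgf18 (ENSDARG00000043962) rose by 1.1 ± 0.12 and the decoy receptor gene fgfrl1 by 1.1 ± 0.18, and the feedback inhibitor gene spry4 was at 0.40 ± 0.13 (adjusted p = 0.055). The 4 lower calls dropped to 0 without bud replicate 2 or 6-somites replicate 2 and to 1 without either of the others. The higher FGF genes numbered 3 without 6-somites replicate 2.

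Of 32 tested Notch genes 15 were higher and 2 lower, with a median of 0.38. The receptor gene notch1 had 3.56 and 4.37 RPKM at 6-somites, against 0.712 and 1.26 RPKM at bud. The ligand gene jag1b rose by 1.19 ± 0.15, and the target gene her4.1 had 2.81 and 2.65 RPKM at 6-somites against 0.475 and 0.574 RPKM at bud. dlc, a ligand of the somite clock, averaged 22.9 ± 0.33 RPKM at 6-somites and 22.6 ± 0.62 RPKM at bud (SD, n = 2 each) and was not called (0.02 ± 0.10). The higher count was 10 without 6-somites replicate 2, and the lower count was 1 without that library or either bud library.

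Of 30 tested genes of retinoic acid signalling 9 were higher and 9 lower. aldh1a2 and rdh10 (ENSDARG00000058730), enzyme genes on the path to retinoic acid, fell. aldh1a2 had 13.2 and 11.3 RPKM at 6-somites, against 31.6 and 28 RPKM at bud. rdh10 had 12.2 and 11.7 RPKM at 6-somites, against 31.3 and 33.2 RPKM at bud. Of the enzymes that break retinoic acid down, cyp26a1 had 20.3 and 18.9 RPKM at 6-somites, against 57.6 and 50.8 RPKM at bud. cyp26b1 had 7.7 and 8.04 RPKM at 6-somites, against 1.41 and 1.95 RPKM at bud. The fall of cyp26a1 was lost without bud replicate 1 or 6-somites replicate 2 (up to 0.058). The orphan nuclear receptor genes nr2f2 (2.19 ± 0.12), nr2f5 (1.56 ± 0.14) and nr2f1 (ENSDARG00000052695, 1.3 ± 0.12) rose, and both rarg copies were not called. In the hedgehog list 9 of 23 tested genes were higher and 5 lower, with the transcription factor gene gli3 at 2.36 and 3.35 RPKM at 6-somites against 0.366 and 0.595 RPKM at bud, and the ligand release factor scube2 at 1.21 ± 0.13. The higher count was 6 without bud replicate 1 or 6-somites replicate 2.

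Ribosomal protein and cell cycle genes were called less than or about as often as genes at large (0% and 20.4%, against 21.9%). Of 65 tested ribosomal protein genes 0 were called by limma and 1 by limma-voom, 7 had an unadjusted p under 0.05, and the median was 0.20. Of 49 tested cell cycle genes 7 were higher and 3 lower, with a median of 0.05 that became -0.05 with median-of-ratios scaling, where 2 were higher and 7 lower. Without 6-somites replicate 1 there was 1 higher, and 2 without bud replicate 1 or 6-somites replicate 2. pcna, the replication clamp, had 503 and 515 RPKM at 6-somites and 367 and 401 RPKM at bud, with an adjusted p of 0.081. The cyclin gene ccnd2 (ENSDARG00000051748) rose to 6.06 and 6.37 RPKM at 6-somites, against 2.26 and 3.54 RPKM at bud, and cdc25d, a phosphatase gene, fell by 1.24 ± 0.19. Morpholinos can set off a cell stress response, and of 28 tested genes of that response 4 were higher and 3 lower in double morphants at 6-somites, a share of 25% beside 21.9% of all genes. Without bud replicate 1 or 6-somites replicate 1 that response had 1 higher and 1 lower gene, and without 6-somites replicate 2 it had 2 higher and 1 lower. cdkn1a (p21) had 2.7 and 3.62 RPKM at 6-somites and 5.14 and 1.05 RPKM at bud, and mdm2 had 5.43 and 5.54 RPKM and 8.31 and 3.23 RPKM. In both the bud libraries lay on either side of the 6-somites ones, with bud replicate 1 the highest of the 4, and neither was called. Of 7 tested interferon genes 1 was higher and 2 lower, where 15.6% of all genes were higher and 6.27% lower. The interferon gene isg15 was at 0.06 ± 0.38. Each of the 4 fits without 1 library had 0 higher interferon genes, and 0 or 1 lower.

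The next comparison asked where development in the double morphants departed from WT, as the stage change in double morphants minus that in WT. Across the 13443 genes the stage changes had a Pearson r of 0.79, a description over genes, which are not independent and share library scaling. The SD of the stage change over genes was 0.505 in double morphants and 0.582 in WT. Of the 2939 genes called in the double morphants, 107 had a WT change of the opposite sign. limma called 1 gene at an adjusted p under 0.05, or 0.00744% of those tested, and 1087 had an unadjusted p under 0.05. The median SE of a departure was 0.22.

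**Figure D4:**
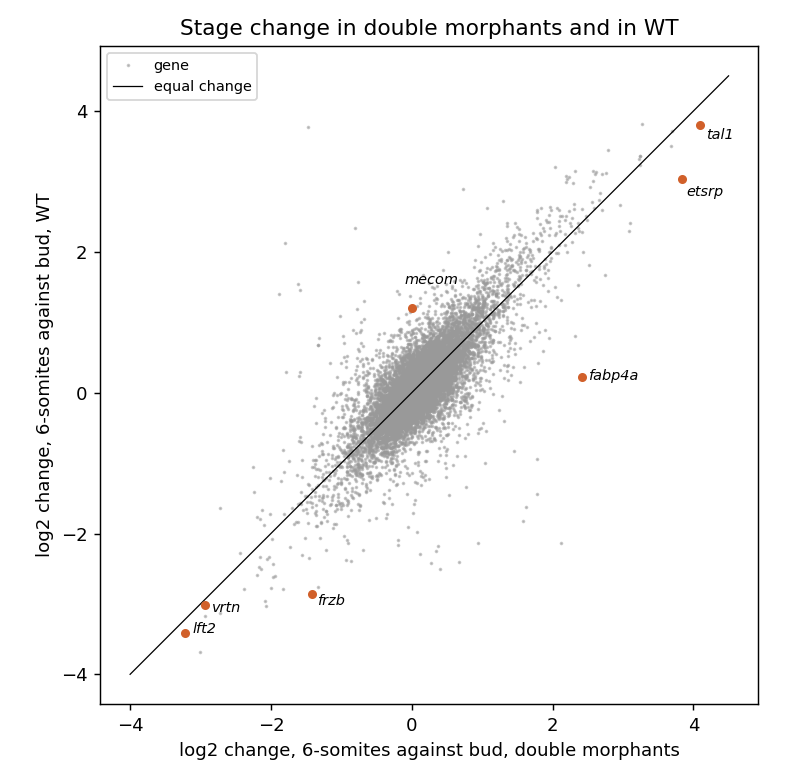
Log2 stage change of RPKM + 1, 6-somites against bud, in double morphants (x axis) and in WT (y axis) for each of the 13443 genes, with the line of equal change. Most genes lie along the line (r = 0.79 over genes), tal1, etsrp, lft2 and vrtn near its ends, and fabp4a lies off it at 2.42 in double morphants and 0.23 in WT.

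The called gene was fabp4a (ENSDARG00000017299), a fatty acid binding protein gene. It had 4.54 and 5.74 RPKM in double morphants at 6-somites, against 0.0755 and 0.219 RPKM at bud, or 88 and 106 reads against 1 and 4. In WT it had 0.364 and 0.338 RPKM at 6-somites and 0.145 and 0.164 RPKM at bud. Only the double morphants at 6-somites stood above 1 RPKM, and the gene entered the test through these 2 libraries alone, so the filter favours a departure in this direction. The departure from WT was 2.19 ± 0.22 (adjusted p = 0.0068). The call was lost in 4 of 8 fits that left out a library, with adjusted p up to 0.07 without WT 6-somites replicate 2, and in 4 of 9 other settings, with an adjusted p of 0.15 with limma-voom on recovered reads, 0.11 with a pseudocount of 0.1, 0.093 in the compared libraries alone and 0.069 with weights per stage. The others of the 4 fits without a library are those in which the count for WT fell to 0: without WT 6-somites replicate 1, double morphant bud replicate 1 and double morphant 6-somites replicate 2.

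There were 4 further genes with an adjusted p under 0.1. frzb (ENSDARG00000018383), a secreted Wnt antagonist, had 3.81 and 3.37 RPKM in double morphants at 6-somites and 10.5 and 12.1 RPKM at bud. In WT it had 1 and 1.49 RPKM at 6-somites and 13.3 and 17.5 RPKM at bud. It fell in both, and the difference of 1.44 ± 0.21 gave an adjusted p of 0.065. mecom and zgc:194209 were chosen after their values were seen. mecom (ENSDARG00000060808), a zinc-finger gene of kidney and blood, had 3.28 and 3.74 RPKM in double morphants at 6-somites and 3.96 and 3.07 RPKM at bud, against 3.25 and 2.95 RPKM in WT at 6-somites and 0.75 and 0.821 RPKM at bud. The double morphants at bud were thus already at the level that WT had at 6-somites, and the departure was -1.20 ± 0.18 (adjusted p = 0.091). zgc:194209 (ENSDARG00000039356), with 1.1 and 1.13 RPKM at 6-somites and 2.93 and 2.39 RPKM at bud, against 2.9 and 3.12 RPKM and 0.96 and 1.55 RPKM in WT, gave -1.63 ± 0.23 (adjusted p = 0.065). The fourth, ENSDARG00000088605, has no symbol.

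Heart and kidney genes named above had departures that did not pass. nkx2.7 had 19.8 and 22.9 RPKM in WT at 6-somites and 15.5 and 9.11 RPKM at bud, so that double morphants were below WT at bud and within or below the WT range at 6-somites. The difference of the stage changes was 0.94 ± 0.33 (unadjusted p = 0.014, adjusted p = 0.46). For cdh17 it was -0.84 ± 0.29 (adjusted p = 0.46), with 2.81 and 2.38 RPKM in WT at 6-somites and 0.598 and 0.818 RPKM at bud. All 4 double morphant libraries of cdh17 were above all 4 WT libraries. How often this holds over all genes tested was not counted. tmem88b departed by -0.77 ± 0.20 (adjusted p = 0.29) and tmem88a by 0.76 ± 0.42 (adjusted p = 0.71).

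Of the genes in the 31 lists 0 passed by limma, so unadjusted p under 0.05 are given only as a description, beside 4.02% higher and 4.07% lower over all genes. In the yolk syncytial list 10 of 46 departed upward and 2 downward, with a median departure of 0.38. apob (0.95 ± 0.43) and slc26a1 (0.80 ± 0.30) are examples, and creb3l3l, a membrane-bound transcription factor gene, departed by -0.37 ± 0.17. In the cell cycle list 9 of 49 departed upward and 1 downward, with pcna at 0.50 ± 0.22 and ccnb1, a mitotic cyclin gene, at 0.33 ± 0.14. In the endoderm list 4 of 16 departed upward and 1 downward, with a median departure of 0.05. In the kidney list 4 of 15 departed downward and 1 upward, with mecom and cdh17 among those that departed downward. In the skeletal muscle list 4 of 33 departed downward, myf5 (-0.52 ± 0.19) among them, and 0 upward. The lists given here are examples from the 31, and are among those with the larger counts in one direction. Other lists had few: in the Notch list 1 of 32 departed upward and 0 downward. In the neural plate list 1 of 64 departed upward and 3 downward. The lists were also chosen with earlier results of these data known. The double morphants at 6-somites also stood lower on the first component than WT at 6-somites (15.4 and 21.8 against 36.5 and 33.2), and the part of that position in these departures was not tested.

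Against the single morphants, departures again rested on few genes. These comparisons share the double morphant libraries with each other and with the comparison with WT. Against Gata5 morphants limma called fabp4a alone, 0.00744% of genes, with 968 at an unadjusted p under 0.05. fabp4a had 0.456 and 0.509 RPKM in Gata5 morphants at 6-somites and 0.319 and 0.157 RPKM at bud, a departure of 2.15 ± 0.22 (adjusted p = 0.0081). That call was lost in 4 of 8 fits that left out a library, with adjusted p up to 0.085 without Gata5 6-somites replicate 1, and in 4 of 9 other settings, up to 0.33 with limma-voom. The other losses were without Gata5 6-somites replicate 2, double morphant bud replicate 1 and double morphant 6-somites replicate 2.

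Against Gata6 morphants limma called 3 genes, or 0.0223%, all higher: fabp4a, tal1 and en2 (ENSDARG00000038868), with 925 at an unadjusted p under 0.05. fabp4a had 0.352 and 0.766 RPKM in Gata6 morphants at 6-somites and 0.35 and 0.112 RPKM at bud, a departure of 2.08 ± 0.22 (adjusted p = 0.0038). The call was lost in 3 of 9 other settings, with an adjusted p of 0.16 with limma-voom and 0.13 both with a pseudocount of 0.1 and in the compared libraries alone. tal1 had 12.6 and 13.7 RPKM in Gata6 morphants at 6-somites and 2.66 and 2.34 RPKM at bud, a departure of 2.09 ± 0.19 (adjusted p = 0.0018). en2 had 14.4 and 13.9 RPKM in Gata6 morphants at 6-somites and 2.9 and 2.75 RPKM at bud, a departure of 1.71 ± 0.17 (adjusted p = 0.0024). Against WT the departures of tal1 and en2 were 0.29 and -0.02 and were not called (limma, adjusted p = 0.76 and 0.99). Like fabp4a, tal1 and en2 entered the test through the double morphant libraries at 6-somites alone, so the filter favours a departure in this direction. For en2 the 6-somites levels of the double morphants, 13 and 14 RPKM, lay near those of Gata6 morphants, and the groups differed at bud. On the first component Gata6 bud replicate 1, at -13.9, was the bud library nearest to 6-somites, with replicate 2 at -26.4, and the part of this position in both calls was not tested. Without Gata6 bud replicate 1 the count against Gata6 morphants was 482, without Gata6 bud replicate 2 it was 27, and without double morphant bud replicate 2 it was 17. Without double morphant bud replicate 2 the count against WT was 31, with 7 without WT bud replicate 2 and 3 without WT bud replicate 1.

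**Figure D5:**
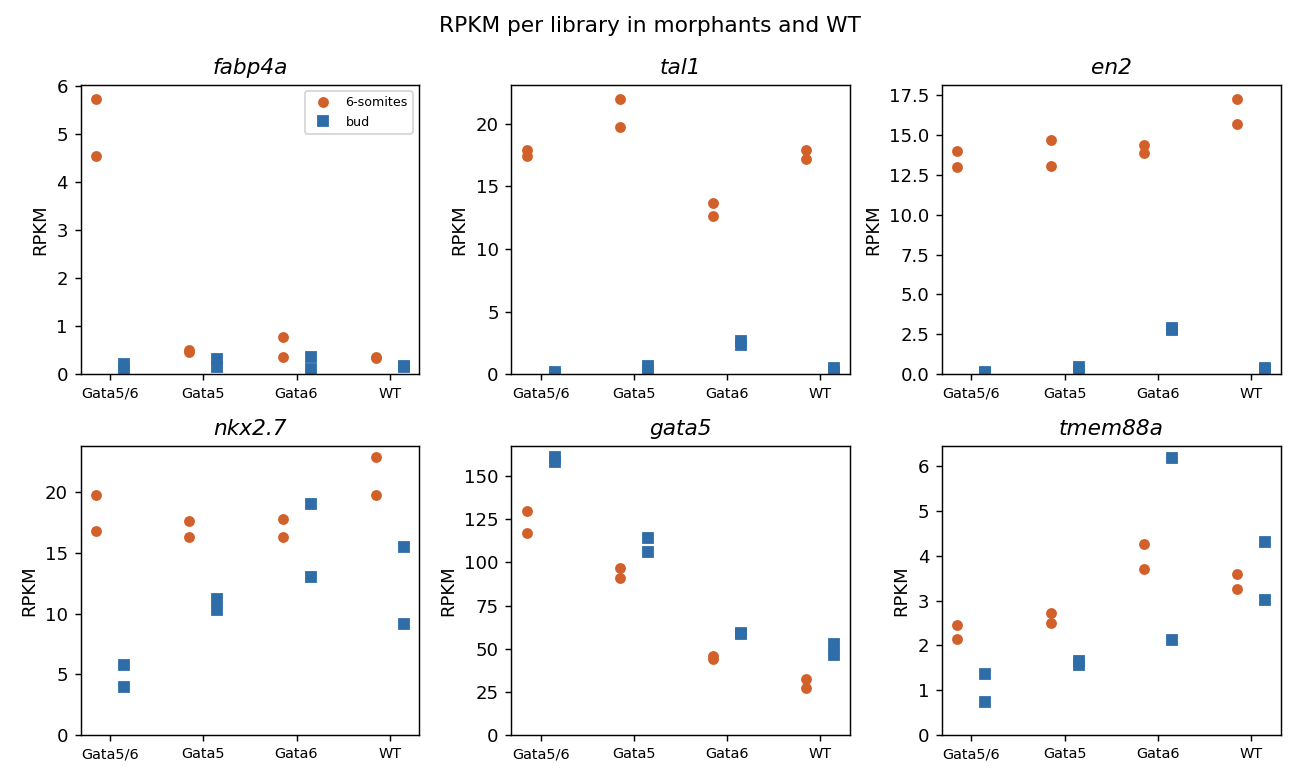
RPKM of each library for fabp4a, tal1, en2 (ENSDARG00000038868), nkx2.7, gata5 and tmem88a in Gata5/6 double morphants, Gata5 morphants, Gata6 morphants and WT, with 6-somites as circles and bud as squares. fabp4a stands at 4.54 and 5.74 RPKM in double morphants at 6-somites and below 1 RPKM elsewhere, and tal1 and en2 are higher at bud in Gata6 morphants than in the other groups.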

How the data were processed

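PolyA RNA of pooled whole embryos was read in single 36-base reads (Illumina Genome Analyzer IIx), per the labels, and the genome build is Zv9 per the submitters' processing notes. The authors deposited RPKM per gene, with aligner, annotation and counter not given in the sources used here. Symbols were matched by gene identifier for 19258 of 27257 identifiers, and 2804 share a symbol, so copies are not always told apart and the identifier is then given. Genes listed in 1 stage alone (761 at bud, 966 at 6-somites) are not analysed here. Whole reads were recovered from the steps of the deposited RPKM for 99.99% of identifiers, with a tolerance of 0.01 reads, and served for depth and as an alternative.

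Values were transformed as log2(RPKM + 1), which understates the change of low genes. limma 3.58.1 in R 4.3.3 with a trend used all 16 libraries, 1 mean for each group and 8 residual degrees of freedom. Tests were two-sided, p-values were adjusted over the 13443 genes by Benjamini-Hochberg, and the threshold was 0.05. The fit gives both stages 1 spread, although bud libraries vary more. It was also run on simulated data with the same spread in all libraries, which cannot test that limit. Genes named are the 12 highest and 12 lowest called changes with a mean of at least 5 RPKM and a symbol, core members and up to 4 called higher and 4 called lower members of 31 gene lists, the genes called for a departure, and gata5, tmem88a and tmem88b. Genes outside this rule are marked, and a few genes within it are not reported here. The members and lists were chosen with earlier results of these data known. Over the 31 lists 195 entries could not be matched to an identifier, so the lists are incomplete. Alternatives were another pseudocount, other filters, median-of-ratios scaling, a fit of the compared libraries alone, weights per stage, the replicate number as a block, limma-voom on recovered reads, and leaving out each library.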

Additional observations from a re-analysis of the deposited data

Results flagged for a closer look

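A test of the difference itself separated the stage change of the double morphants from that of another group in 5 cases. fabp4a departed by 2.19 on the log2 scale from WT, by 2.15 from Gata5 morphants and by 2.08 from Gata6 morphants, and these 3 values share the double morphant libraries. The fabp4a calls were lost in 4 of 9, 4 of 9 and 3 of 9 other settings, with adjusted p up to 0.15 against WT, 0.33 against Gata5 morphants and 0.16 against Gata6 morphants, and in 4 of 8 fits without 1 library against WT and against Gata5 morphants. tal1 departed by 2.09 and en2 (ENSDARG00000038868) by 1.71 from Gata6 morphants. From WT they departed by 0.29 and -0.02 and were not called (limma, adjusted p = 0.76 and 0.99). All 3 genes entered the test through the double morphant libraries at 6-somites alone, so the filter favours departures in this direction. The calls on tal1 and en2 held whichever of the 8 libraries was left out (adjusted p at most 0.025 and 0.033). In a fit of the 8 libraries alone both had an adjusted p that rounds to 0.05 and stayed under the threshold.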

How the results depend on the processing

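The count of 2939 stage changes was within 1.5 times in the alternatives other than a filter at 5 RPKM, which gave 1415 calls (867 higher, 548 lower) among 7795 genes tested, and leaving out a library, which gave 1233 to 2391. The departures from WT numbered 0 with a pseudocount of 0.1, the filter at 5 RPKM, a fit of the compared libraries alone or weights per stage, 5 without a filter on low values, 2 with limma-voom, and 0 to 31 without 1 library. The departures from Gata5 morphants numbered 0 with the pseudocount of 0.1, the filter at 5 RPKM, the compared libraries alone, weights per stage or limma-voom, 7 without a filter, and 0 to 3 without 1 library. The departures from Gata6 morphants numbered 5 without a filter, 9 with weights per stage, and 3 to 482 without 1 library. A similar count does not mean the same genes. Of the 2939 stage calls the fit of the compared libraries alone kept 1908, no filter 2469 and median-of-ratios scaling 2556. Weights per stage kept 2643, limma-voom 2745, the pseudocount of 0.1 2775 and the replicate block 2870. The 2 departures from WT with limma-voom did not include fabp4a. The cause of these shifts was not tested, and the stricter filter also left fewer genes to test. Libraries of the same number deviated together within a stage, with correlations of 0.194 to 0.549 between groups at bud and 0.258 to 0.557 at 6-somites, but not in the double morphants across stages (-0.0651). With 2 numbers and no shared clutch or day in the labels, this is a hint from the data and not the design. The replicate block gave 3096 stage changes, and 1, 1 and 3 departures from WT, Gata5 and Gata6 morphants. A replicate block within each stage, added after seeing the data, gave 2738, 3, 2 and 11. Of the 185 called genes named, 131 kept the call whichever of the 4 libraries was left out, and none changed direction in any alternative.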
